A study of Homo sapiens with 16 samples.

Results

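The genes described here are 10 symbols read as output or control points of the YAP and TGF-beta pathways: CTGF, CYR61, ANKRD1, AMOTL2, LATS2, THBS1, TGFB1, TGFB2, SMAD7 and YAP1. All 10 were chosen by name, with earlier results of these data known, and were present among the 26475 gene symbols of the table. ANKRD1 was too low to be tested, so 9 of the 10 were among the 16012 genes tested. The libraries were poly-A RNA of lung metastases that grew from A375 MA2-Luc, an established human melanoma line, after 250000 cells had been injected behind the eye of NSG mice, which lack mature lymphocytes. There were 4 groups of 4 libraries: ketogenic diet with inhibitors, ketogenic diet without, high fat diet with inhibitors, and high fat diet without. The inhibitors are labelled BRAF-Kinase and MEK 1/2 inhibitors, without drug names or doses, and were given by oral gavage 3 times a week for 5 weeks. The untreated groups are labelled None, and a vehicle is not mentioned. The design text also speaks of a cultured cell line, and whether cells were grown in culture between lung and RNA extraction is not stated, which bears on what every level and marker sum below describes. Every tumour came from the same line, no mice on a standard diet were included, and the labels do not say whether each replicate was its own mouse, so the p-values measure the spread between these libraries.

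YAP is a transcriptional coactivator that binds DNA through TEAD factors. The Hippo kinases, LATS2 among them, phosphorylate it and keep it out of the nucleus, and AMOTL2 holds it in the cytoplasm. TGF-beta ligands are secreted in a latent form that THBS1 can activate; their receptors phosphorylate SMAD proteins, which move to the nucleus and induce, among others, SMAD7, an inhibitor that shuts the receptors off. CTGF and THBS1 are well known targets of both pathways, and CYR61, ANKRD1, AMOTL2 and LATS2 are targets of YAP and TEAD. In melanoma both pathways have been studied in connection with a dedifferentiated, invasive state and with resistance to BRAF and MEK inhibitors.

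RefSeq windows of GRCh38.p14, from 250 bases before to 50 bases after an annotated start, matched 9 of the 10 genes in 12 windows, with none for CYR61. They were searched on both strands for CATTCC, the letters that TEAD factors recognise. The TEAD letters occurred in 7 of the 12 windows, 1 for each gene but TGFB1 and SMAD7, against 14.0% of all 35116 windows. The 250 bases before the start follow for 4 genes, each 5′ to 3′ on the gene's strand with the TEAD letters of either strand in capitals: CTGF (chr6:131951373-131951622, minus strand) because it had the most matches and the most significant change, THBS1 (chr15:39580829-39581078, plus strand) and TGFB2 (chr1:218345086-218345335, plus strand) because they also differed between groups, and ANKRD1 (chr10:90921088-90921337, minus strand) because it has 2 matches and yet was almost unread.
CTGF: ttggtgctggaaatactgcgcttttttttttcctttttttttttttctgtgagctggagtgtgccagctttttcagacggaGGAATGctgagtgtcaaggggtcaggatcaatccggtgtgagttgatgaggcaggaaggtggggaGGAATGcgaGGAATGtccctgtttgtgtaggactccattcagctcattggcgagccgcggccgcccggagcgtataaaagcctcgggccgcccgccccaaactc
THBS1: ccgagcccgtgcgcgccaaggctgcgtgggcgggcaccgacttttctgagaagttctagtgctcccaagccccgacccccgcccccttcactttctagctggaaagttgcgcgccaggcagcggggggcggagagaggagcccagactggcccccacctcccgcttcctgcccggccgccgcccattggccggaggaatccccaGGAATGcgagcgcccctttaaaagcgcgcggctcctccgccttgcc
TGFB2: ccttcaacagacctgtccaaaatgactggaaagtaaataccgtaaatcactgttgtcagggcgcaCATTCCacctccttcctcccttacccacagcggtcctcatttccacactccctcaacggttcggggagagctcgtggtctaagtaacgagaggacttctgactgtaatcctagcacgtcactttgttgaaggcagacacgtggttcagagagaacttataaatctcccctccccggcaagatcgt
ANKRD1: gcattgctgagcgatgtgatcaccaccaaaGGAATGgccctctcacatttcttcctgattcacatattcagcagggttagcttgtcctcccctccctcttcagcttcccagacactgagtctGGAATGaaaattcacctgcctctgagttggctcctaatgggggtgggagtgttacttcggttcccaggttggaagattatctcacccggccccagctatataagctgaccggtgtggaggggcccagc
In the CTGF window the TEAD letters begin 169, 104 and 95 bases before the start, and 0.128% of all windows hold 3 or more such matches. In THBS1 the match begins 46 bases before the start, in TGFB2 185 bases before it, and in ANKRD1 220 and 128 bases before it. CAGAC, the short element bound by SMADs, was found on either strand in 8 of the 12 windows, of CTGF, ANKRD1, AMOTL2, LATS2, THBS1, TGFB2 and SMAD7, against 45.3% of all windows. TGANTCA, a loose form of the AP-1 element that allows any base at N, was found in 1 of the 12 windows, against 7.71% of all windows. That window was the one of ANKRD1, where the letters were TGATTCA. These matches are letters in a window and say nothing on binding.

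Each library held between 37.1 M and 77.3 M estimated counts (M, mega). Ribosomal RNA genes took 4.10% to 8.37% of counts on the ketogenic diet with inhibitors and 15.2% to 33.7% without, and 15.01% to 19.97% on the high fat diet with inhibitors and 21.7% to 50.0% without. The share thus separated treated from untreated libraries on each diet, and its part in the differences below was not tested. SOX10, which marks melanocytic cells, was read at 726 to 934 CPM (read counts scaled to depth, on TMM-adjusted library sizes) in every library, while the pigment genes MLANA and TYR stayed at or below 3.94 CPM. DCT, another pigment gene, differed between groups. Its level is not given here, so these changes may lie near the floor. Of 13 melanoma genes, 4 averaged under 1 CPM in treated high fat and in untreated ketogenic tumours, 3 in untreated high fat and 2 in treated ketogenic ones. In edgeR fits that left out 1 library, the log2 change of DCT under inhibitors on the high fat diet ran from -2.48 to -1.86. For ketogenic against high fat diet without inhibitors it ran from -3.25 to -2.69. The difference of inhibitor effects, ketogenic minus high fat, ran from 3.67 to 4.43. All had an adjusted p under 0.05 in each fit. Of 13 melanoma genes tested, 0 rose and 2 fell with inhibitors on the high fat diet, where 42.3% of all genes were called. Replicates 4 and 1 of the ketogenic diet with inhibitors and replicate 4 of the untreated high fat diet were the 3 libraries least like the rest of their groups, with mean correlations of 0.975, 0.979 and 0.979 of log2 CPM against 0.984 or more in the other libraries. Summed over 10 mitosis genes, the last of them stood at 156 CPM, while the untreated high fat group reached 1096 CPM. In bulk RNA, fewer cells of a type and less RNA per cell cannot be told apart.

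Across the 4 groups, CTGF was lowest in untreated high fat tumours and higher in the other 3 groups, THBS1 was highest in high fat tumours under inhibitors, and TGFB2 was highest in untreated high fat tumours. CYR61 was highest in untreated ketogenic tumours. In edgeR's quasi-likelihood test for any difference among the 4 groups, 6 of the 9 genes passed an adjusted p of 0.05, where 39.1% of all tested genes did: CTGF (adjusted p = 0.00293), THBS1 (0.00379), TGFB2 (0.00664), CYR61 (0.00881), SMAD7 (0.0316) and YAP1 (0.0403). AMOTL2 (0.250), LATS2 (0.450) and TGFB1 (0.477) did not.

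**Figure D1:**
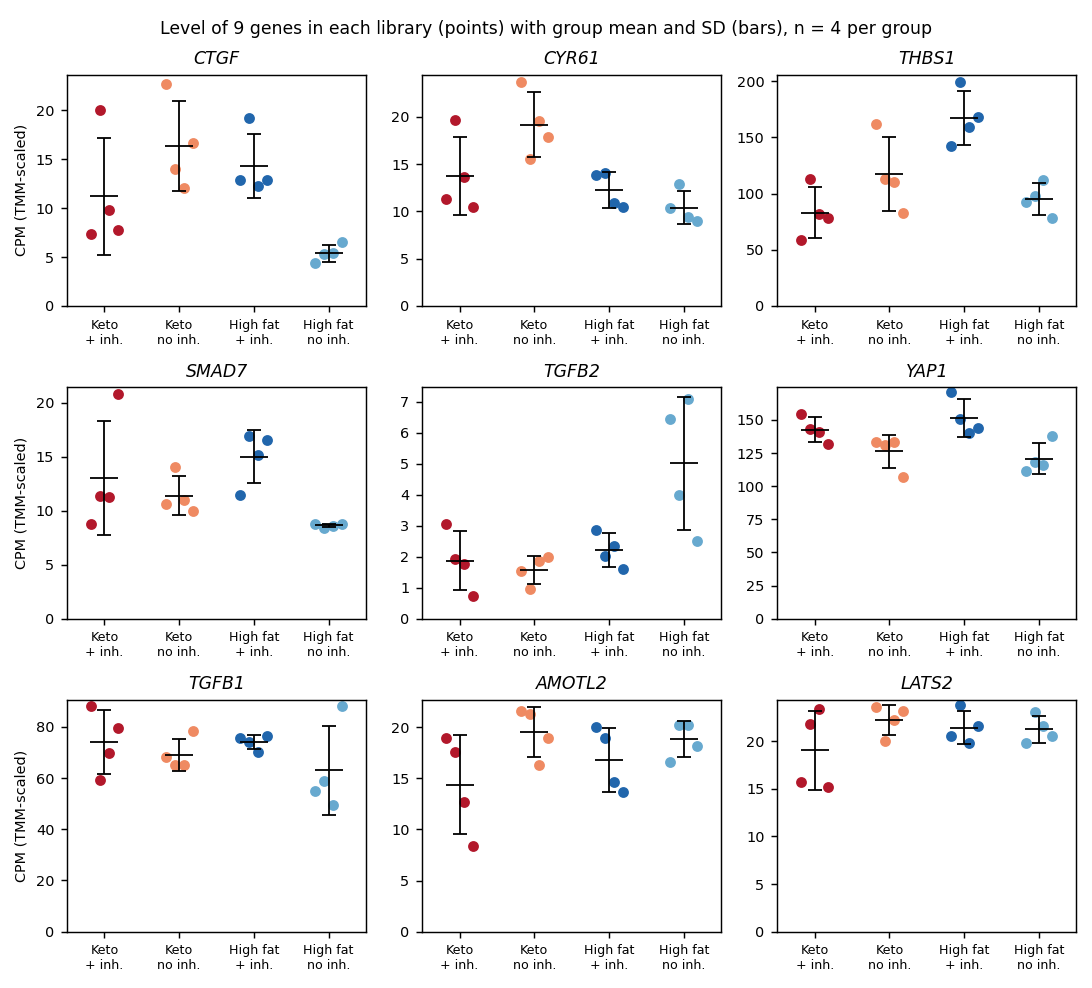
CPM on TMM-scaled library sizes (y axis, from 0) of the 9 tested genes in each library (points) with the group mean and SD (bars), 4 libraries in each of the 4 groups along the x axis. CTGF is at or below 6.49 CPM in all 4 untreated high fat libraries and above that in the other 12, and THBS1 is at 143 CPM or more in all 4 high fat libraries with inhibitors.

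CTGF, a secreted matrix protein that is the usual readout of YAP activity, is encoded on chromosome 6 (131948176 to 131951373, minus strand, GRCh38). On the high fat diet it was read at 12.9, 19.2, 12.2 and 12.8 CPM with inhibitors, against 4.35, 5.28, 5.36 and 6.49 CPM without. The ketogenic libraries read 7.37, 20.02, 9.75 and 7.71 CPM with inhibitors, against 22.7, 14.0, 12.1 and 16.6 CPM without. All 8 libraries of the high fat diet fell into separate ranges by treatment, whereas those of the ketogenic diet overlapped, with treated replicate 2 among the untreated ones. The untreated high fat level was also below every library of the untreated ketogenic group, and CTGF was 3.05-fold higher in untreated ketogenic than in untreated high fat tumours (log2 1.61, SE 0.29, adjusted p = 0.00444), a call that held without any single library. CTGF rose 2.66-fold under inhibitors on the high fat diet, by log2 1.41 (SE 0.29, adjusted p = 0.00138). Its log2 change on the ketogenic diet was -0.54 (SE 0.28, adjusted p = 0.318; 95% interval -1.16 to 0.07). Without ketogenic replicate 2 with inhibitors that change was -0.98 and passed, with an adjusted p of 0.0445.

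CYR61, the sister of CTGF in the CCN family and likewise a matrix protein and YAP target, was also higher in untreated ketogenic than in untreated high fat tumours. In untreated tumours it was read at 23.7, 15.6, 19.6 and 17.8 CPM on the ketogenic diet, against 10.4, 12.9, 9.36 and 8.99 CPM on the high fat diet. With inhibitors it was read at 11.3, 19.7, 13.6 and 10.4 CPM on the ketogenic diet, against 13.8, 14.1, 10.9 and 10.4 CPM on the high fat diet. The untreated groups did not overlap, and the treated groups did. CYR61 was 1.84-fold higher in untreated ketogenic than in untreated high fat tumours (log2 0.88, SE 0.19, adjusted p = 0.00916). Under inhibitors on the high fat diet its log2 change was 0.24 (SE 0.19, adjusted p = 0.328; 95% interval -0.18 to 0.66).

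ANKRD1, a nuclear ankyrin-repeat protein and another standard YAP target, gave 25 counts in all 16 libraries together. It had 0, 4, 0 and 1 counts on the ketogenic diet with inhibitors and 7, 4, 5 and 0 without, and 0, 2, 0 and 0 counts on the high fat diet with inhibitors and 0, 0, 2 and 0 without. Of the 25 counts, 16 lay in the untreated ketogenic group. No library but those of that group and 1 treated ketogenic library exceeded 3 counts, and no difference in ANKRD1 could be tested at this depth.

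YAP1 itself, on chromosome 11, changed little. On the high fat diet it was read at 171, 151, 139.8 and 144 CPM with inhibitors, against 111, 118, 116 and 138 CPM without. The ketogenic libraries read 155, 143, 141 and 132 CPM with inhibitors, against 133, 131, 134 and 107 CPM without. The high fat groups were separated by a narrow gap, and the ketogenic groups overlapped. YAP1 rose 1.25-fold under inhibitors on the high fat diet (log2 0.33, SE 0.10, adjusted p = 0.0146), a call that was lost without high fat replicate 1 with inhibitors (adjusted p = 0.0514). Of the negative regulators that YAP also induces, LATS2 ran from 15.2 to 23.8 CPM over the 16 libraries and AMOTL2 from 8.37 to 21.5 CPM. Neither passed in any comparison, and for LATS2 under inhibitors on the high fat diet the 95% interval of the log2 change was -0.27 to 0.30.

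TGFB2 was called between groups, and the other ligand of the set, TGFB1, was not. It was read at 3.04, 1.93, 1.78 and 0.747 CPM on the ketogenic diet with inhibitors and at 1.53, 0.964, 1.85 and 1.99 CPM without. On the high fat diet it was read at 2.87, 2.01, 2.36 and 1.59 CPM with inhibitors, against 6.45, 3.98, 7.08 and 2.52 CPM without. Replicates 1 to 3 of the untreated high fat group lay above all other libraries, and replicate 4 lay within the treated range. TGFB2 fell 2.26-fold under inhibitors on the high fat diet (log2 -1.18, SE 0.38, adjusted p = 0.0197), and was 3.17-fold lower in untreated ketogenic than in untreated high fat tumours (log2 -1.66, SE 0.39, adjusted p = 0.0117). The first call was lost without high fat untreated replicate 1 (adjusted p = 0.0589), without untreated replicate 3 (0.0730) and without treated replicate 4 (0.0622). TGFB2 shares reads with the overlapping transcript TGFB2-OT1, and summing both changed no call.

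TGFB1, the ligand most often measured in tumours, was read at 88.1, 59.3, 69.6 and 79.4 CPM on the ketogenic diet with inhibitors and at 68.3, 65.1, 64.9 and 78.2 CPM without. On the high fat diet it was read at 75.8, 74.0, 70.2 and 76.3 CPM with inhibitors, against 54.9, 59.1, 49.7 and 88.3 CPM without. Untreated replicates 1 to 3 were below, and replicate 4 above, every treated library of that diet. TGFB1 did not pass there (log2 0.23, SE 0.15, adjusted p = 0.225), and without untreated replicate 4 it did (log2 0.44, adjusted p = 0.00802). HNRNPUL1, CCDC97 and TMEM91 overlap TGFB1 on the opposite strand, and without a stated strand setting their reads cannot be told apart from those of TGFB1.

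THBS1, thrombospondin 1, a matrix glycoprotein encoded on chromosome 15 (39581079 to 39599466, plus strand, GRCh38), had group means in opposite order on the 2 diets. On the high fat diet it was read at 143, 199, 159 and 168 CPM with inhibitors, against 92.1, 98.1, 112 and 78.2 CPM without. On the ketogenic diet it was read at 58.8, 113, 81.9 and 78.2 CPM with inhibitors, against 162, 113, 111 and 82.8 CPM without. The high fat groups were fully separated, and the ketogenic groups overlapped. THBS1 rose 1.76-fold under inhibitors on the high fat diet (log2 0.81, SE 0.20, adjusted p = 0.00433), and on the ketogenic diet its log2 change was -0.50 (SE 0.20, adjusted p = 0.199). Under inhibitors, the ketogenic and the high fat group did not overlap, with 83.1 ± 22.6 CPM on the ketogenic and 167 ± 23.6 CPM on the high fat diet (SD, n = 4 each); that log2 difference of -1.01 (SE 0.20) narrowly missed the threshold in edgeR (adjusted p = 0.0512) and passed in DESeq2 (adjusted p = 0.000509). FSIP1 overlaps THBS1 on the opposite strand, and whether counting used strand is not given in the sources used here.

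SMAD7, the inhibitory SMAD that TGF-beta induces, was almost constant in untreated high fat tumours. On the high fat diet it was read at 11.5, 16.9, 15.1 and 16.5 CPM with inhibitors, against 8.75, 8.45, 8.59 and 8.82 CPM without. The ketogenic libraries read 8.76, 11.4, 11.3 and 20.8 CPM with inhibitors, against 10.6, 14.0, 10.97 and 9.94 CPM without. Every treated high fat library and every untreated ketogenic library lay above the untreated high fat group. SMAD7 rose 1.74-fold under inhibitors on the high fat diet (log2 0.80, SE 0.21, adjusted p = 0.00649). The log2 difference between the untreated diets was 0.40 (SE 0.21, adjusted p = 0.209), and the inhibitor effect on the ketogenic diet was 0.19 (SE 0.21, adjusted p = 0.654).

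In order of mean level, the CTGF groups ran from untreated ketogenic (16.4 ± 4.63 CPM) through treated high fat (14.3 ± 3.31 CPM) and treated ketogenic (11.2 ± 5.96 CPM) to untreated high fat (5.37 ± 0.878 CPM; SD, n = 4 each). Of these neighbours only the last pair differed in edgeR, with treated ketogenic tumours above untreated high fat ones by log2 1.06 (adjusted p = 0.0125). For TGFB2 the means were 1.58 ± 0.455 CPM in untreated ketogenic, 1.87 ± 0.940 CPM in treated ketogenic, 2.21 ± 0.542 CPM in treated high fat and 5.01 ± 2.13 CPM in untreated high fat tumours, and only the last pair of neighbours differed (adjusted p = 0.0197). For CYR61, THBS1, SMAD7, YAP1, TGFB1, AMOTL2 and LATS2 no neighbouring groups in the order of their means passed the test.

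Counted over the set, 4 of the 9 genes rose and 1 fell under inhibitors on the high fat diet, where 42.3% of all tested genes were called (20.6% higher and 21.7% lower). The median log2 change of the 9 was 0.24, beside -0.03 over all tested genes, and 4 of the 9 had groups that did not overlap, against 44.7% of all genes. None of the 9 passed in edgeR on the ketogenic diet, where 1.74% of all genes did (0.856% higher and 0.887% lower), and their median was -0.23 beside 0.01. None had ketogenic groups that did not overlap, against 10.3% of all genes. DESeq2 also called none; at an unadjusted p under 0.05, edgeR had 3 of the 9, CYR61, THBS1 and AMOTL2, all with negative changes. Ketogenic against high fat diet without inhibitors, 2 rose and 1 fell, where 13.5% of genes were called (7.99% higher and 5.51% lower); 4 of the 9 did not overlap, against 25.5% of all genes. Treated ketogenic against untreated high fat tumours, 2 of the 9 were higher and 1 was lower, where 30.5% of genes were called (16.7% higher and 13.8% lower). These were CTGF, SMAD7 (log2 0.59, adjusted p = 0.0408, in overlapping groups) and TGFB2 (log2 -1.41, adjusted p = 0.0115), and CTGF alone did not overlap, against 25.5% of all genes. Treated high fat against untreated ketogenic tumours, CYR61 alone was called, lower by log2 -0.64 (adjusted p = 0.0360), where 13.4% of genes were called (6.45% higher and 6.91% lower). CYR61 and YAP1, 2 of the 9, did not overlap there, against 27.4% of all genes. The comparison of the untreated diets shares its high fat libraries with the first, so the values of CTGF and TGFB2 in both rest in part on the same 4 libraries.

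The effect of the inhibitors itself differed between diets for CTGF and THBS1. The log2 difference of effects, ketogenic minus high fat, was -1.96 (SE 0.40, adjusted p = 0.0143) for CTGF and -1.31 (SE 0.28, adjusted p = 0.0163) for THBS1, and these 2 of the 9 genes passed where 9.02% of all genes did (4.36% higher and 4.66% lower). Both calls held when any single library was left out. For the other genes this difference was not past the threshold: it was -0.72 (adjusted p = 0.0965) for CYR61, 1.43 (0.0965) for TGFB2 and -0.60 (0.190) for SMAD7. CYR61 passed without treated ketogenic replicate 2 (log2 -0.95), and TGFB2 and SMAD7 passed without treated ketogenic replicate 4 (log2 1.69 and -0.92). Between the diets under inhibitors, where 0.169% of all genes were called (0.119% lower), none of the 9 passed in edgeR and THBS1 passed in DESeq2. THBS1 was also the 1 gene of the 9 whose groups did not overlap there, against 7.14% of all genes. At an unadjusted p under 0.05, edgeR had THBS1 alone.

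**Figure D2:**
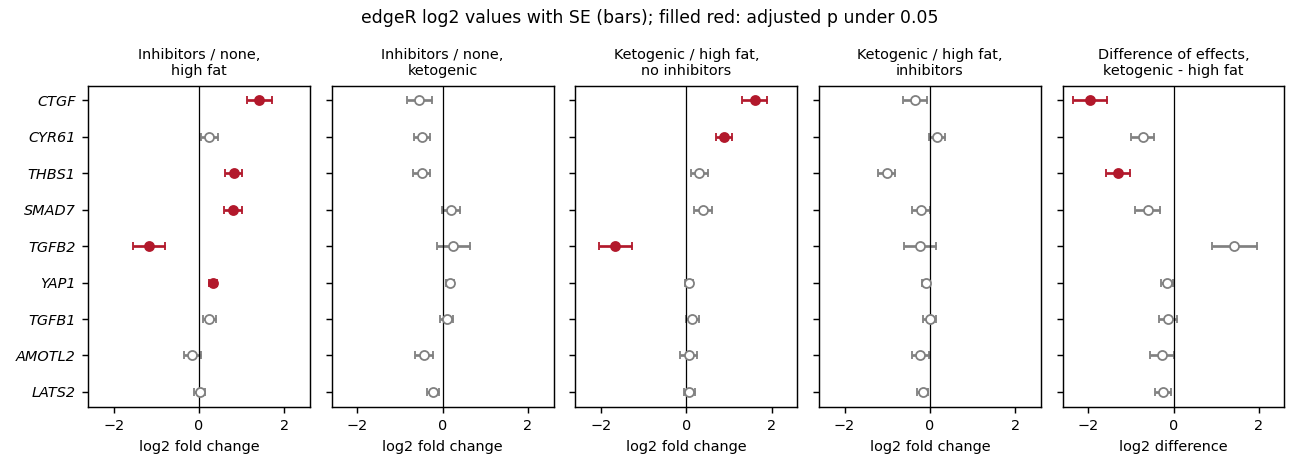
edgeR log2 values (x axis) of the 9 tested genes with their SE (bars) in 4 comparisons of groups and for the difference of inhibitor effects, ketogenic minus high fat; filled red points have an adjusted p under 0.05. CTGF and THBS1 lie to the right under inhibitors on the high fat diet (1.41 and 0.81) and to the left in the difference of effects (-1.96 and -1.31), and on the ketogenic diet no point is filled.

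Several measures moved with these results. The summed level of 10 mitosis genes ran from 1271 to 1565 CPM on the high fat diet with inhibitors and from 156 to 1096 CPM without. Like CTGF, it thus separated treated from untreated libraries on that diet. Of the 10 genes, 3 were called higher there, against 42.3% of all tested genes called, and 8 did not overlap, against 44.7%. In ketogenic tumours the sum ran from 707 to 2008 CPM with inhibitors and from 1398 to 1780 CPM without, so the untreated ketogenic libraries also lay above all untreated high fat ones. Unlike for CTGF, the treated ketogenic range overlapped that of the untreated high fat group. The summed level of 14 fibroblast and smooth muscle markers ran from 49.4 to 80.8 CPM on the high fat diet with inhibitors and from 109.5 to 114 CPM without, and from 53.5 to 89.7 CPM in treated and from 60.04 to 99.5 CPM in untreated ketogenic tumours, with ACTA2 the highest of the markers. Its members did not go one way: of 11 tested under inhibitors on the high fat diet, ACTA2 (log2 -1.86) and PDGFRB (-0.92) fell and COL3A1 rose (2.08, adjusted p = 0.00817). These calls stand beside 42.3% of all tested genes called there, and the median was 0.33 beside -0.03 over all tested genes. COL1A1 stayed at or below 1.73 CPM in every library. Platelets carry THBS1 and TGFB1, and 10 platelet markers summed to 1.82 to 6.04 CPM, and PF4, PPBP and GP6 were at 0 in all 16 libraries. Host cells in these tumours would be mouse cells, while counts were made on the human genome, and the handling of host reads is not given. The marker sums of this paragraph therefore cannot show whether platelets or other host cells were present. The summed level of 10 endothelial markers ran from 6.96 to 12.9 CPM, that of 12 macrophage and leukocyte markers from 34.4 to 75.2 CPM and that of 10 lung epithelial markers from 1.26 to 3.13 CPM. LYZ, the lysozyme of macrophages and some epithelia, moved with CTGF: it averaged 3.45 ± 1.43 CPM in treated ketogenic, 3.61 ± 1.01 CPM in untreated ketogenic, 3.73 ± 0.188 CPM in treated high fat and 0.5497 ± 0.251 CPM in untreated high fat tumours (SD, n = 4 each). It was called under inhibitors on the high fat diet (log2 2.74), between the untreated diets (2.69) and in the difference of effects (-2.81), and no call was lost when any single library was left out. Of the 7 tested macrophage and leukocyte markers LYZ rose and CD68, the most abundant, fell (log2 -0.64) under inhibitors on the high fat diet, where 42.3% of all tested genes were called. Their median was 1.29 beside -0.03 over all tested genes. Between the untreated diets 2 of the 7 were higher, LYZ and FCER1G, where 13.5% of all genes were called. In fits that left out 1 library FCER1G ran from log2 1.95 to 2.34, and its call was lost in 1 of 16. The CD68 call was lost in 4 of 16 fits that left out 1 library. The only lung epithelial marker tested, AGER, went the other way in the same 3 comparisons (log2 -1.02, -0.78 and 1.59), and its call between the untreated diets was lost in 5 of 16 fits that left out 1 library. The part of the mitosis genes and of these marker genes in the results was not tested. Without the 3 libraries in which ribosomal RNA took over 30% of counts, which left 2 untreated high fat libraries, CTGF and THBS1 still rose under inhibitors on the high fat diet (adjusted p = 0.0271 and 0.0215), while the calls of SMAD7 (0.0590), TGFB2 (0.101) and YAP1 (0.180) were lost. There, the differences of effects also missed the threshold, with adjusted p = 0.104 for CTGF and 0.0884 for THBS1, and edgeR called no gene of the whole table for that difference or between the untreated diets, with 2919 and 2668 genes at an unadjusted p under 0.05. Leaving out the 3 libraries least like their groups, a choice made after the data were seen, raised the calls over the whole table. Under inhibitors on the high fat diet 4386 genes rose and 4290 fell (3295 and 3476 with all libraries), among them 6 of the 9. Between the untreated diets 2598 were higher and 2097 lower (1280 and 883), among them 5 of the 9. For the difference of effects these were 1178 and 1740 (698 and 746), again with 5 of the 9.

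Of 22 further targets of YAP and TEAD, 2 rose and 3 fell under inhibitors on the high fat diet, against 42.3% of all tested genes called there. None was called by edgeR on the ketogenic diet, against 1.74% of all tested genes (7 had an unadjusted p under 0.05, and DESeq2 called 2). On the high fat and the ketogenic diet the medians were 0.00 and -0.09 (log2), beside -0.03 and 0.01 over all tested genes. The values that follow are those of the high fat diet. RBMS3, an RNA-binding protein, fell furthest: it averaged 7.15 ± 3.00 CPM with inhibitors and 37.3 ± 7.51 CPM without (log2 -2.39, SE 0.34, adjusted p = 0.000133). PTPN14 (log2 -0.49), a phosphatase that restrains YAP, and FOXF2 (-0.56) also fell, and DOCK5 (0.57) and NT5E (0.67) rose; the last 3 of these calls were lost when single libraries were left out. Of 22 Hippo kinases, adaptors and TEAD partners, 5 rose and 4 fell, a share near that 42.3%. SAV1, the scaffold of the Hippo kinases, averaged 30.1 ± 1.47 CPM with inhibitors and 16.6 ± 1.80 CPM without (log2 0.86, SE 0.11, adjusted p = 5.87e-05), and the kinase activator MOB1A (0.71), the TEAD competitor VGLL4 (0.57) and NF2 (0.39) rose with it, while TEAD2 (-0.52) and the kinase STK4 (-0.29) fell. WWTR1, which encodes the YAP paralogue TAZ and was picked here after its values were seen, averaged 909 ± 99.2, 912 ± 79.8, 898 ± 55.4 and 922 ± 111 CPM in the treated ketogenic, untreated ketogenic, treated high fat and untreated high fat groups (SD, n = 4 each).

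On the ketogenic diet, none of 24 tested TGF-beta receptors, latency proteins and SMAD genes passed in edgeR, where 1.74% of all tested genes did, or in DESeq2. There, 4 had an unadjusted edgeR p under 0.05. Under inhibitors on the high fat diet, 5 of the 24 rose and 4 fell, near the 42.3% of all tested genes. The nuclear repressors of SMADs rose: SKI averaged 94.97 ± 4.68 CPM with inhibitors and 63.2 ± 4.45 CPM without (log2 0.59, SE 0.09, adjusted p = 0.00016), and SKIL changed by log2 1.00. FURIN (0.74), a protease that processes the ligands, and the receptor TGFBR2 (0.55) rose too. SMAD3, the main transducing SMAD, fell (86.5 ± 16.6 CPM with inhibitors and 155 ± 16.1 CPM without; log2 -0.84, SE 0.18, adjusted p = 0.00154), as did the latency proteins LTBP1 (-1.04) and LTBP4 (-1.05). Of 23 tested further TGF-beta targets, against the same 42.3%, 2 rose (SKIL, which is in both lists, and ID2 at 1.37) and 4 fell: ACTA2 (-1.86), the repressor SNAI2 (-1.18), TGFBI (-0.77) and LDLRAD4 (-0.59), an inhibitor of the pathway. The TGFBI call was lost in 6 of 16 fits that left out 1 library. LDLRAD4 also fell on the ketogenic diet, at 5.98 ± 0.479 CPM with inhibitors and 10.04 ± 0.921 CPM without (log2 -0.75, adjusted p = 0.0134), as did TPM1 (-0.70, adjusted p = 0.0430), whose call was lost in 12 of 16 fits that left out 1 library.

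**Figure D3:**
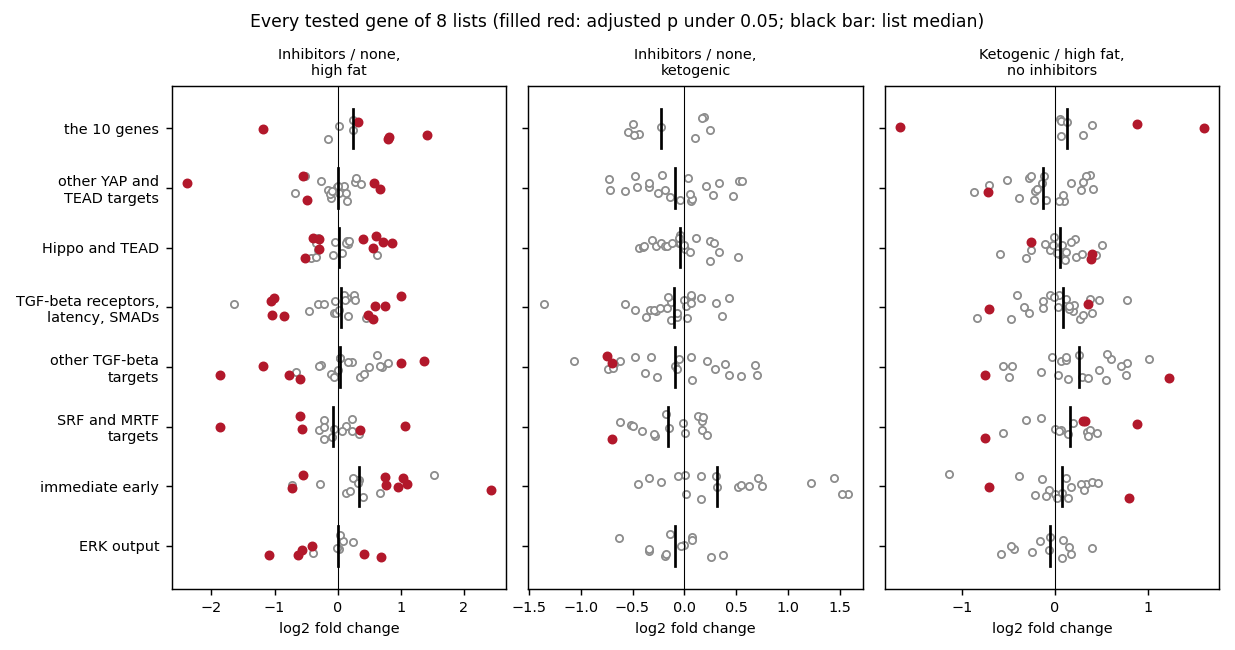
edgeR log2 fold changes (x axis) of every tested gene of the set and of 7 further lists in 3 comparisons; filled red points have an adjusted p under 0.05 and black bars are list medians. Called genes lie on both sides of 0 in every list under inhibitors on the high fat diet. Few are called on the ketogenic diet, where 1.74% of all tested genes were.

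Actin and serum-response genes share targets with YAP. Of 16 tested SRF and MRTF targets, 2 rose and 3 fell under inhibitors on the high fat diet. This and the 2 lists that follow stand beside 42.3% of all tested genes called there. ACTB, cytoplasmic beta-actin, averaged 1061 ± 66.9 CPM with inhibitors and 507 ± 18.9 CPM without (log2 1.07, SE 0.14, adjusted p = 7.11e-05). Of 19 immediate early genes, 6 rose and 2 fell; JUN, an AP-1 subunit that cooperates with TEAD, averaged 53.3 ± 3.31 CPM with inhibitors and 9.87 ± 2.54 CPM without (log2 2.43, SE 0.33, adjusted p = 9.39e-05). Of 12 genes that report ERK activity, the pathway the inhibitors target, 2 rose and 4 fell. SPRY4 (-0.63), ETV4 (-0.41), EPHA2 (-1.09) and PHLDA1 (-0.56) fell, whereas SPRED1 (0.41, adjusted p = 0.00284), an inhibitor of the pathway, rose. DUSP6 rose too (0.68), and its call was lost in 3 of 16 fits that left out 1 library. None of the immediate early or ERK output genes passed in edgeR on the ketogenic diet, where 1.74% of all tested genes did. Of these lists 8 and 2 had an unadjusted p under 0.05 there, and DESeq2 called 1 and 0. JUN came nearest in edgeR, with a log2 change of 1.23 (SE 0.32, adjusted p = 0.0629). Its ketogenic groups did not overlap, as was so for 10.3% of all genes.

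Between the untreated diets, 13.5% of all genes were called, and every list of this paragraph stands beside that share. Of 22 further YAP targets 1 passed (CDC42EP3, log2 -0.72), and of 22 Hippo and TEAD genes 3 did (SAV1 0.40, NF2 0.39 and STK4 -0.25). So did 2 of 24 TGF-beta receptor, latency and SMAD genes (SKI 0.35 and LTBP4 -0.71) and 2 of 23 TGF-beta targets (ID1 1.23 and ACTA2 -0.75). All of these calls were lost in some fits that left out 1 library. Of 16 SRF and MRTF targets 3 rose and 1 fell, of 19 immediate early genes 1 rose and 1 fell, and none of 12 ERK output genes passed in edgeR, with 4 at an unadjusted p under 0.05 and 1 called by DESeq2. ACTB was higher on the ketogenic diet (log2 0.89, SE 0.14, adjusted p = 0.00259), and its call held in every such fit.

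The genes whose levels followed each member most closely were found by the root mean square difference of centred log2 CPM over the 16 libraries. For CTGF they were MCM6 (0.37), MCM2 (0.39) and KALRN (0.41), where the median over all genes was 0.73 and CTGF's own spread was 0.68. For THBS1 they were HCFC1, ANPEP and FAIM2 (each 0.28, own spread 0.47), and for TGFB2 SH2D5 and NIPAL4 (each 0.29) and MAN2A2 (0.31, own spread 0.68). For SMAD7 they were RUNX1, ILKAP and TOR3A (each 0.14, own spread 0.38), and for CYR61 NUCKS1 (0.22), PDIA4 (0.22) and CNN3 (0.23, own spread 0.39). No member was among the 3 nearest genes of another. This measure also counts unequal sizes of change, and the own spreads of CTGF (0.68) and CYR61 (0.39) differ. It therefore cannot show whether CTGF and CYR61 rose and fell together.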

How the data were processed

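Poly-A RNA of 16 libraries was measured, 4 in each of 4 groups taken from the sample labels. The deposited values are RSEM expected counts (estimated counts) per gene symbol, 26475 in all, not scaled for depth. Per the submitters' processing notes, Bowtie2 2.1.0, RSEM 1.2.15 and hg38 were used; neither the strandedness of the counting nor the handling of host reads is given in the sources used here. Among deposited values, 13.0% were not whole, and counts were rounded.

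Genes were filtered by filterByExpr (16012 kept), scaled by TMM and tested, two-sided, for 4 group means by edgeR's quasi-likelihood F test in its robust form (edgeR 4.0.16 under R 4.3.3), with Benjamini-Hochberg adjustment over all genes tested and a threshold of 0.05. The SE is the log2 change over the square root of F. CPM are on TMM-scaled sizes, and n = 4 throughout unless said. The fit was tested on simulated data. DESeq2 1.42.0, other filters and scalings, a replicate block and left-out libraries were alternatives. Gene positions are from GENCODE 29 (GRCh38), promoter sequences from RefSeq (GRCh38.p14).

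The 10 genes and all lists were chosen with earlier results of these data known, and no p adjusted over a list is given. Besides the 10, the text names list genes among the 3 smallest p of a list in a comparison, and for 5 of the 10 the 3 genes with the closest profile. NT5E, SMAD3, TGFBR2, ID2, DUSP6, WWTR1 and the marker genes were named after their values were seen.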

Additional observations from a re-analysis of the deposited data

Results flagged for a closer look

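Within a group of 4, a library far from the other 3 by Dixon's criterion was found in 2 of 36 gene and group combinations, where chance gives about 1.8. CTGF was 19.2 CPM in high fat replicate 2 with inhibitors, and its other 3 libraries ran from 12.2 to 12.9 CPM. YAP1 was 107 CPM in untreated ketogenic replicate 4, and the others ran from 131 to 134 CPM.

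The inhibitor effect differed between the diets (edgeR, ketogenic minus high fat, log2) for CTGF at -1.96 and for THBS1 at -1.31, of which the report gives the values by library. Among list genes it also differed for RBMS3 (1.81), ACTA2 (1.24), TIMP3 (-1.19), ACTB (-0.89), CRIM1 (-0.85), MOB1A (-0.75), MYH9 (-0.75), SAV1 (-0.61), SKI (-0.57) and MAP4K4 (-0.54). Over all tested genes 9.02% were called. By list these were 2 of 22 further YAP targets, 3 of 22 Hippo and TEAD genes and 1 of 24 TGF-beta receptor, latency and SMAD genes. They were also 2 of 23 TGF-beta targets and 3 of 16 SRF and MRTF targets, with ACTA2 in both. Of 19 immediate early and 12 ERK output genes none was called. TIMP3, an inhibitor of matrix proteases, averaged 890 ± 256 CPM with inhibitors and 1437 ± 173 CPM without on the ketogenic diet, and 1245 ± 226 CPM with inhibitors and 880 ± 341 CPM without on the high fat diet. The calls of ACTB and SKI held in all 16 fits that left out 1 library, as did those of CTGF and THBS1, and each of the others was lost in 6 to 11 of them.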

How the results depend on the processing

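ANKRD1 and TGFB2 apart, the 10 genes had 224 counts or more in every library. The rises of CTGF and THBS1 under inhibitors with high fat feeding passed the threshold under every alternative tried. For the changes below, the cause was not tested, beyond the smaller number of libraries where libraries were left out.

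With DESeq2, 880 genes were called for inhibitors with ketogenic feeding (279 in edgeR), 345 between the diets under inhibitors (27), among them 1 of the set, THBS1 (0), and 2487 for the difference of inhibitor effects (1444). A filter of 1 CPM likewise called 1 of the set, THBS1, between the diets under inhibitors.

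With library size alone, the median log2 change of all genes moved to 0.25 for inhibitors with high fat feeding, 0.28 with ketogenic feeding, 0.15 between the untreated diets, 0.19 between the treated diets and 0.43 for treated ketogenic against untreated high fat tumours. The share of calls that were higher was then 79.8%, 93.4% and 91.4% in the first 3 of these (48.7%, 49.1% and 59.2% under TMM) and 94.4% in the last (54.7%). For treated high fat against untreated ketogenic tumours it was 65.9% (48.2%). There were 981 genes called for inhibitors with ketogenic feeding, 1 between the treated diets, 238 for the difference of effects and 781 for treated high fat against untreated ketogenic tumours (2139 under TMM), with 0 of the set (1) in edgeR. For treated ketogenic against untreated high fat tumours, 6 of the set were called (3).

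Fitted with only the libraries compared, 56 genes were called for inhibitors with ketogenic feeding, 3346 between the untreated diets (2163), 0 between the treated diets, where 1475 had an unadjusted p under 0.05, 2725 for treated ketogenic against untreated high fat tumours (4876) and 3849 for treated high fat against untreated ketogenic tumours.

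Without the 3 libraries over 30% ribosomal RNA (untreated high fat replicates 2 and 3 and untreated ketogenic replicate 2), 3858 genes (6771) and 2 of the set (5) were called for inhibitors with high fat feeding, 53 genes with ketogenic feeding, 0 genes and 0 of the set (3) between the untreated diets, 3 genes between the treated diets, 0 genes and 0 of the set (2) for the difference of effects, 1718 genes and 0 of the set (3) for treated ketogenic against untreated high fat, 1143 genes for treated high fat against untreated ketogenic, and 2462 genes (6262) and 2 of the set (6) for any difference. At an unadjusted p under 0.05, edgeR had 3, 3 and 2 of the set where these counts of the set are 0.

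Without the 3 libraries least like their groups, an alternative chosen after seeing the data, 712 genes were called for inhibitors with ketogenic feeding, 4695 genes and 5 of the set between the untreated diets, 353 genes between the treated diets, 2918 genes and 5 of the set for the difference of effects, and 4789 genes and 3 of the set for treated high fat against untreated ketogenic tumours.

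Leaving out 1 library at a time, the genes called ranged from 5446 to 7624 for inhibitors with high fat feeding, 88 to 446 with ketogenic feeding, 778 to 3200 between the untreated diets, 3 to 64 between the treated diets, 407 to 2636 for the difference of effects, 3384 to 5889 for treated ketogenic against untreated high fat, 969 to 3023 for treated high fat against untreated ketogenic and 4564 to 6986 for any difference. Of the set, 4 to 6, 0 to 1, 3 to 3, 0 to 1, 2 to 4, 2 to 4, 0 to 1 and 4 to 6 were called, in the same order.

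Directions turned only in comparisons where the gene was not called. LATS2 on the log2 scale was -0.00593 under the 1 CPM filter and -0.000536 without the 3 least alike libraries for inhibitors with high fat feeding. With library size alone, LATS2 was 0.0461 for inhibitors with ketogenic feeding, 0.00275 between the treated diets, 0.300 for treated ketogenic against untreated high fat and 0.0434 for treated high fat against untreated ketogenic, AMOTL2 was 0.131 for inhibitors with high fat feeding and 0.0790 for treated ketogenic against untreated high fat, where THBS1 was 0.278, and YAP1 was 0.0784 between the treated diets. Between the treated diets TGFB1 was -0.00154 in DESeq2, -0.00153 with RLE factors, -0.00441 without ribosomal RNA genes and -0.00915 with the replicate block. Without the libraries over 30% ribosomal RNA, TGFB1 and YAP1 were -0.0351 and -0.00998 between the untreated diets, and TGFB1 was 0.0369 for the difference of effects. Without the 3 least alike libraries, LATS2, TGFB1 and SMAD7 were 0.0212, -0.101 and -0.00816 for inhibitors with ketogenic feeding, CTGF, LATS2 and TGFB1 were 0.0628, 0.0758 and -0.201 between the treated diets, and LATS2 was 0.0218 for the difference of effects and 0.0753 for treated ketogenic against untreated high fat. Leaving out 1 library at a time, LATS2 ranged from -0.0387 to 0.0559 for inhibitors with high fat feeding, TGFB2 from -0.0890 to 0.516 and SMAD7 from -0.122 to 0.346 for those with ketogenic feeding, AMOTL2 from -0.00272 to 0.138 between the untreated diets, TGFB1 from -0.0935 to 0.0937, CYR61 from -0.0634 to 0.274 and TGFB2 from -0.575 to 0.0296 between the treated diets, and CTGF from -0.370 to 0.00843 for treated high fat against untreated ketogenic tumours.

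No pairing by replicate number was seen, though this check cannot exclude a partial one. Deviations of same-numbered libraries correlated at -0.268 to 0.336 (mean 0.034), over 0.1 in 7 of 24 pairs. Those of libraries with different numbers correlated at -0.491 to 0.495 (mean -0.010), over 0.1 in 15 of 72 pairs. Of 16 libraries, 5 correlated best with their own number. With the replicate block, 6239 genes and 5 of the set were called for any difference (6262 and 6), YAP1 having an adjusted p of 0.0618, and no other call of the set changed.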
